A study of Drosophila melanogaster with 27 samples.

Results

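Obp44a, Obp99a, Obp99b and Obp56d are 4 odorant-binding protein genes whose ratios between test and reference RNA moved in Drosophila melanogaster eye discs. They were selected on these same measured ratios out of 11510 genes with a probe, so their values are given as a description, without a test. A further 32 genes of the family had a probe and serve as the comparison. The members took up 6 spots on each array, 1 each for Obp44a (CG2297), Obp99a (CG18111) and Obp56d (CG11218) and 3 for Obp99b (CG7592, probes a, b and c). In the RefSeq table Obp44a and Obp56d lie on chromosome arm 2R, and Obp99a and Obp99b on 3R.

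Odorant-binding proteins are small secreted proteins that carry hydrophobic ligands. They are best known from the fluid around olfactory neurons in the antenna, where they bind odorants, and several are made in tissues with no olfactory role. Obp44a is known from glia of the central nervous system, where its product binds fatty acids. Obp99b is also called turn on sex-specific (tsx) and is known from the fat body of the adult male head. The eye-antennal imaginal disc is the larval sheet that forms the eye, the antenna and head cuticle; across its eye part moves the morphogenetic furrow, behind which photoreceptors differentiate.

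The series held 27 two-colour glass arrays of discs from larvae of the third instar in 9 conditions. On each array the reference was the same RNA of whole eye-antennal discs of the isogenised w1118 stock, amplified by 1 round of T7 transcription, and the test RNA was amplified by 2 rounds. The test samples were posterior fragments of w1118 eye discs, cut at the furrow (4 arrays), and whole discs of mutants. Stop-furrow discs came from roDom homozygotes (3 arrays), E(roDom)2033 homozygotes (3), ato1 homozygotes (3) and hh1 homozygotes (4). Extra-R8 discs came from roX63 (3) and Su(roDom)519 (3), whose zygosity the labels do not give, and the last conditions were roDom heterozygotes (2) and E(roDom)2033 heterozygotes (2). A few discs were pooled for each sample, and the series describes the replicates as independent. No w1118 whole-disc sample was hybridised against the reference, so the spread of normal whole discs is missing from every ratio, and a difference due to the unequal amplification cannot be told apart from the genotype.

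All values below are log2 ratios of test over reference, so 1 is a doubling and 0 is no difference, and errors are SD over arrays. The dye of each test RNA was taken from the labels. The authors' deposited ratios, which the labels present as test against reference, ran in the opposite direction to these. The array titles, however, name the reference first. Labels were in conflict for 3 arrays. Another label field calls 2 of the arrays titled E(roDom)2033 homozygotes (replicates 2 and 3) heterozygous. For replicate 2 of the roDom homozygotes, labels and scanner header disagree on which dye marked the test RNA, and the labels were followed. Between 48.2% and 94.0% of probes were above background in at least 1 channel of an array, with posterior fragment replicate 1 lowest and the next array at 66.3%. Ratios of an array correlated with the mean of the other arrays of its condition at r = 0.27 to 0.77 across probes. Per the file headers the arrays were scanned on 9 days, and 23 of the 27 arrays belong to the 7th array series. In bulk tissue fewer cells of a type and less RNA per cell cannot be told apart.

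Obp99a was low in posterior fragments and at or above the reference in nearly all whole-disc samples. The 4 fragment arrays read -3.41, -2.96, -3.02 and -3.06, with a mean of -3.11 ± 0.20 (SD, n = 4), or 0.116 times the reference. The net test signal there was 22 to 134 scanner units, detected on 3 of 4 arrays, against 1336 to 1574 in the reference channel. The test channel of replicate 1, at 22 units, was not above background, so the size of its -3.41 is uncertain. Without replicate 1 the mean was -3.02. The background correction adds an offset to both channels. With test signals this dim, the 0.116 and the SD depend in part on that offset, so they are not an exact fold and spread. The fragments lay below all 23 whole-disc arrays, whose lowest value was -1.13. Across all probes, 4.73% passed the limma test in fragments against the reference and 7.96% passed in fragments minus stop-furrow discs.

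In the stop-furrow discs Obp99a was above the reference on all 13 arrays by their labels. The lowest of these, roDom homozygote replicate 2, was level with the reference, at 0.02 by its labels and -0.02 when turned by its header. The hh1 arrays were the highest as a group, at 2.57, 2.34, 2.85 and 1.48 (mean 2.31 ± 0.59, n = 4). The ato1 arrays read 1.19, 0.32 and 2.46 (mean 1.33 ± 1.08, n = 3). The E(roDom)2033 homozygotes read 1.84, 2.12 and 0.36, and the roDom homozygotes 1.69, 0.02 and 1.44, so the ranges of these 4 genotypes overlapped.

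Heterozygotes of roDom overlapped the homozygotes, with Obp99a at 0.82 and 2.10. Heterozygotes of E(roDom)2033, at -0.49 and 0.32 (mean -0.09 ± 0.57, n = 2), were the condition nearest to the fragments in rank without overlapping them. Of the extra-R8 discs, Su(roDom)519 read 1.20, 2.16 and 0.79, and roX63 read 1.70, 1.96 and -1.13, the last from replicate 3. Apart from the step down to the fragments, all neighbours in the order of Obp99a condition means had overlapping ranges.

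Most of the 8 listed genes of the anterior eye and head were low in the fragments, as Obp99a was. In limma's fit 7 were lower there and oc did not pass, where 1.98% of all probes were lower. Ance, also the gene most like Obp99a over the 27 arrays, lay lowest of these 7, at -4.69 ± 0.28 SE. The mean ratio of the list lay between -2.57 and -1.76 on the fragment arrays and between -0.56 and 0.70 on the whole-disc arrays. All 8 genes were detected on at least 26 arrays. Among the whole-disc arrays alone, the correlation of Obp99a with this list was r = -0.15 (n = 23). The part of such cells in the Obp99a values was not tested. Fragments 2 to 4 were scanned on the same day as ato1 replicate 1, which read 1.19 for Obp99a and -2.96 for Obp44a, so for both genes fragments and ato1 lay apart within that day too.

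Obp44a was high in posterior fragments and lowest in ato1 discs. The fragments read 3.53, 1.5, 0.38 and 2.34 (mean 1.94 ± 1.33, n = 4), all above the reference but spread over 3.15 log2 units. The ato1 discs read -2.96, -2.46 and -2.55 (mean -2.66 ± 0.27, n = 3), or 0.158 times the reference. The 3 ato1 arrays were lower than every other array of the series.

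The stop-furrow genotypes differed among themselves in Obp44a. In hh1 discs it was above the reference, at 0.62, 0.61, 1.87 and 0.66 (mean 0.94 ± 0.62, n = 4). In roDom homozygotes it was below, at -1.06, -0.42 and -0.80 (mean -0.76 ± 0.32, n = 3). The -0.42 is replicate 2, which turned by its header reads 0.42 and gives a mean of -0.48, so that roDom homozygotes are then not all below the reference. The ranges of hh1, roDom homozygotes and ato1 were separate from each other, although all of these discs share the stop-furrow class. The E(roDom)2033 homozygotes read 0.81, 3.48 and -0.33 (mean 1.32 ± 1.95, n = 3), and without replicate 2 that mean was 0.24.

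The roDom heterozygotes, at -1.26 and -1.19, lay below all homozygote arrays. In E(roDom)2033 heterozygotes Obp44a read 0.38 and -0.86. The roX63 discs read -0.19, 0.04 and 0.05, while Su(roDom)519 discs ranged from -2.11 over -0.69 to 0.39. With day of scanning as a block, Obp44a read 0.80 in roX63, 0.0064 in roDom homozygotes and -0.20 in roDom heterozygotes. It read 0.58 in E(roDom)2033 heterozygotes, 0.67 in E(roDom)2033 homozygotes and 0.028 in Su(roDom)519. Fragments read 2.13, ato1 -2.12 and hh1 0.52. These values are levels at the average of the 9 scanning days, so only their differences between conditions compare with the plain means. Of the 36 pairs of conditions, 23 had separate Obp44a ranges, against 13 for Obp99a, 7 for Obp99b (probe c) and 4 for Obp56d. The share over all probes was not computed, and the members had been picked for their variation. With 2 to 4 arrays per condition, separate ranges also arise without a difference, so these counts are a description only.

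Photoreceptor genes ran in part with Obp44a. The mean of the 10 listed photoreceptor genes was 0.63 to 0.99 on the fragment arrays and -1.65 to -1.35 in ato1 discs, the highest and the lowest condition as for Obp44a. In E(roDom)2033 homozygotes that list read -1.48 to -1.30 while Obp44a was above the reference on 2 of 3 arrays. Its correlation with Obp44a was r = 0.54 over 27 arrays (rho 0.56), 0.69 without the 2 arrays of most extreme Obp44a, and 0.28 within conditions. Over the 23 whole-disc arrays r was 0.31. Of the 10 genes, 3 had r above 0.5 with Obp44a over 27 arrays, and the lowest was -0.20. The list of 11 glial genes, all detected on at least 18 arrays, gave r = 0.41 over 27 arrays and -0.02 within conditions, and its mean was -0.31 to 0.25 in the fragments and -0.48 to -0.11 in ato1. For 7 hemocyte genes r was 0.46. The part of these cells in the Obp44a values was not tested.

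**Figure D1:**
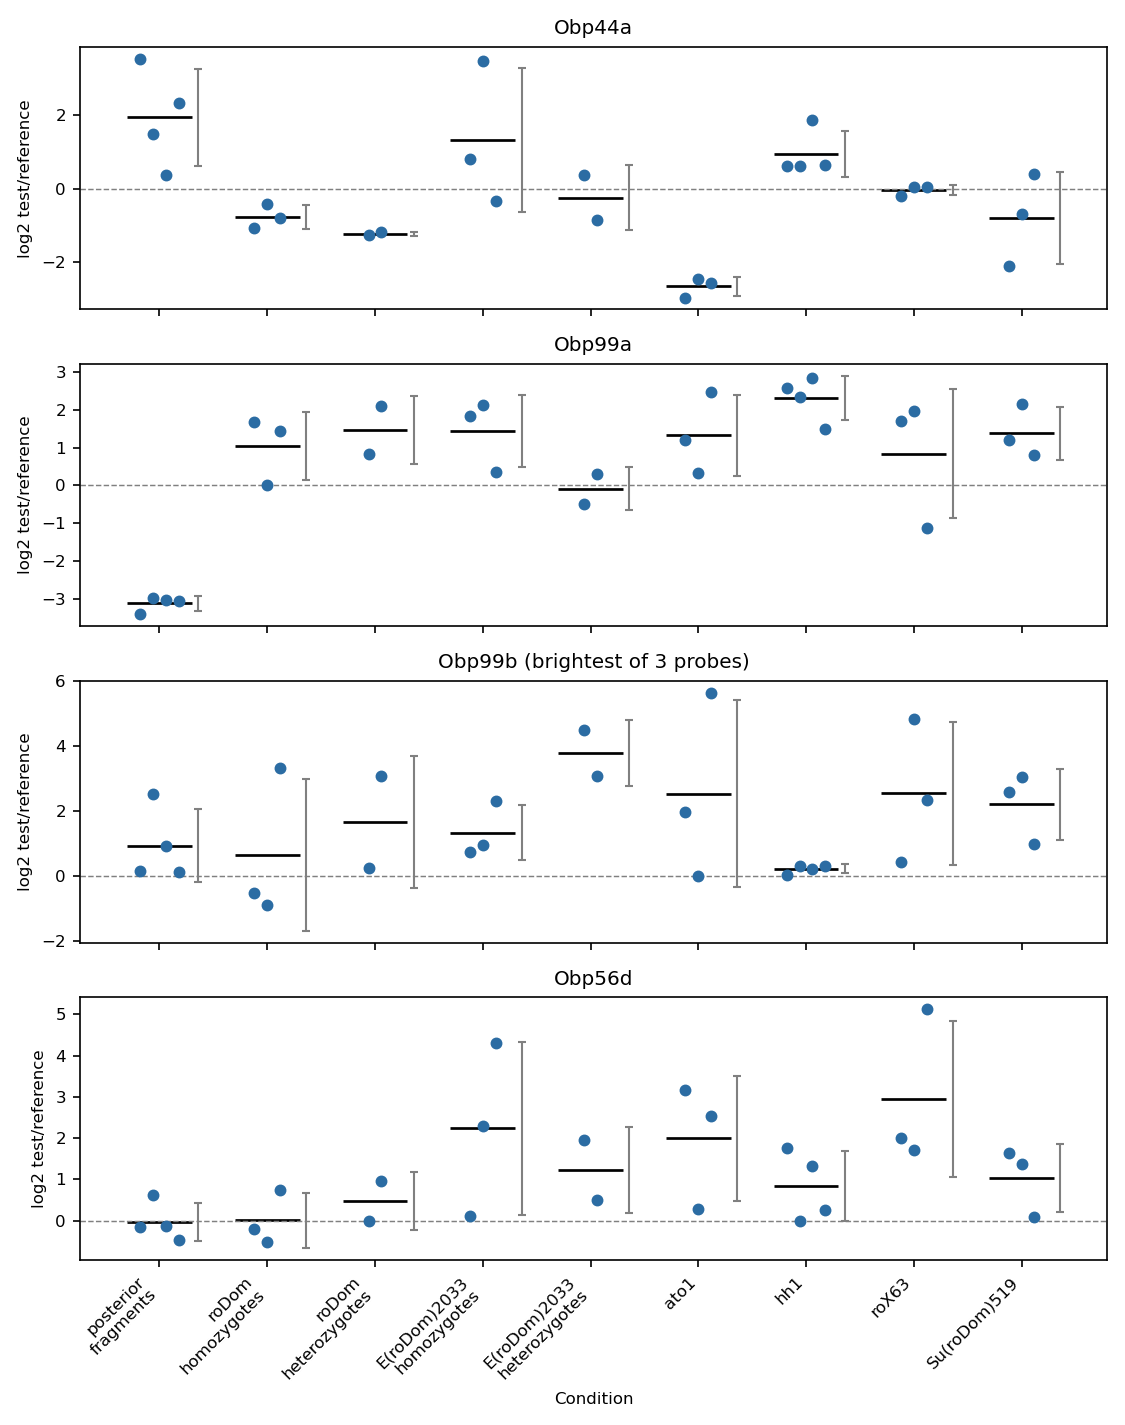
Log2 ratio of test over reference (y axis) of the 4 genes in each of the 9 conditions (x axis), with 1 point per array, a black bar at the mean and a grey bar for ± 1 SD. Obp99a in the fragments lies apart from every whole-disc array, Obp44a is tightly low in ato1, and Obp99b and Obp56d spread widely within several conditions.

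Obp99b varied more between replicates of a condition than between conditions. On its brightest spot, probe c, the highest value was 5.66 in ato1 replicate 3, where replicates 1 and 2 read 1.96 and -0.01. The roX63 discs read 0.44, 4.85 and 2.36, and the roDom homozygotes -0.51, -0.90 and 3.33 (0.90 in place of -0.90 with replicate 2 turned by its header, and a mean of 1.24 in place of 0.64). In each of these genotypes a single array thus stood several log2 units above another.

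Obp99b replicates lay closest together in hh1 discs and highest in E(roDom)2033 heterozygotes. The hh1 arrays read 0.03, 0.32, 0.23 and 0.31 (mean 0.22 ± 0.13, n = 4). The E(roDom)2033 heterozygotes read 4.50 and 3.08 (mean 3.79 ± 1.01, n = 2), the highest mean of the 9 conditions, 13.8 times the reference. The homozygotes of the same allele read 0.74, 0.95 and 2.31, below both heterozygote arrays. Another label field calls the arrays at 0.95 and 2.31 heterozygous. The heterozygotes were scanned on days 6 and 7 and the homozygotes on days 8 and 9, so zygosity and scanning day cannot be told apart here. With day as a fixed block the homozygotes lay above the heterozygotes. As they share no scanning day, that order rests on arrays of other conditions and does not separate zygosity from day.

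Elsewhere Obp99b read 2.59, 3.05 and 0.97 in Su(roDom)519 discs and 0.24 and 3.10 in roDom heterozygotes. The posterior fragments read 0.17, 2.53, 0.92 and 0.11. Ranges of neighbouring conditions overlapped throughout the order from E(roDom)2033 heterozygotes to hh1. The reference channel of probe c was dim, with a median net signal of 103 units over 27 arrays, and the test channel reached 6958. Fragment replicate 1 (0.17) and roDom homozygote replicate 1 (-0.51) were detected in neither channel of that probe.

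The 3 Obp99b probes correlated closely. Probe a correlated with b at r = 0.94 and with c at 0.95, and b with c at 0.97 over 27 arrays, and within conditions these values were 0.94, 0.95 and 0.96. All 3 had the same sign on 24 arrays. Their values on an array differed by a median of 0.48 and by at most 2.14, in roX63 replicate 2.

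Between the 9 conditions lay 36.2% of the variance of Obp99b over the 27 arrays, close to the median of 39.4% over 16486 probes. Its SD within conditions of 1.67 ranked 5th among these probes, whose median was 0.215. For Obp56d the share between conditions was 49.2% and the SD within conditions 1.23. Obp99a and Obp44a showed the reverse balance, with 83.5% and 73.8% of their variance between conditions. The members had been picked for their variation, so these ranks are a description.

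Scanning day moved with Obp99b. The 5 arrays of day 6, which came from 5 different conditions, read from 3.05 to 5.66 on probe c, and the other 22 arrays read from -0.90 to 3.10 with a median of 0.59. On probe c the day 6 array was the highest in each of the 5 conditions. On probes a and b this held for 4 of them, and in Su(roDom)519 the day 6 array read 1.47 and 1.87 where another day gave 2.27 and 2.62. The 7 arrays of day 7 read from 0.24 to 3.10 (median 2.36), and the 5 arrays of day 9 from -0.01 to 2.31 (median 0.32). A share of 73.2% of the Obp99b variance lay between days, against a median of 39.4% over all probes. For Obp99a the share was 68.1%, for Obp44a 50.5% and for Obp56d 19.3%. Days and conditions overlap in part, as the fragments were scanned on days 4 and 5 only. With day as a fixed block E(roDom)2033 heterozygotes read 0.78 and roX63 read -0.10. The E(roDom)2033 homozygotes then lay higher than the heterozygotes, with which they share no scanning day. The plain means of E(roDom)2033 heterozygotes and roX63 were 3.79 and 2.55. Blocked values are levels at the average of the 9 days, so only their differences between conditions compare with plain means. A day of scanning is not a day of dissection, and the part of the day in these values was not tested.

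Genes of the larval fat body ran closely with Obp99b. The 5 genes most like it among 6881 named genes were Fbp2 (fat body protein 2, r = 0.94 over 27 arrays), Lsp1gamma (a larval serum storage protein, 0.92), fon (a hemolymph clotting factor, 0.91), Lsp2 (another larval serum protein, 0.86) and Mct1 (a monocarboxylate transporter, 0.84). Over the 9 condition means these r were 0.97, 0.93, 0.96, 0.88 and 0.82. Within conditions they were 0.96, 0.91, 0.88, 0.85 and 0.86. As deviations from the day means they were 0.88, 0.81, 0.81, 0.66 and 0.84, so the relation was present within days as well. All arrays share the reference RNA, and the test amplification is common to both genes on an array.

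Fbp2 and Lsp1gamma were high on the same arrays as Obp99b. In ato1 discs Fbp2 ranged from -0.06 to 4.68 and Lsp1gamma from 0.72 to 4.49. In hh1 discs, where Obp99b was flat, Fbp2 ranged from -0.10 to 0.54 and Lsp1gamma from -0.44 to 0.07. Of the 9 fat-body genes listed, 6 had r above 0.5 with Obp99b and 3 did not: Adh (0.05), the collagen gene Col4a1 (0.11) and Fbp1 (-0.18).

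The mean of the 9 fat-body genes correlated with Obp99b at r = 0.93 (rho 0.84) over 27 arrays and at 0.88 without the 2 arrays farthest in Obp99b. It was 0.91 within conditions, 0.79 within days and 0.85 over the 22 arrays without day 6. Fbp2, Lsp1gamma and Lsp2 belong to this list and were also among the genes most like Obp99b. The list mean is therefore not separate from that likeness. The mean itself ranged from 0.16 to 1.83 in ato1, from 0.08 to 1.73 in roX63, from 0.59 to 1.75 in E(roDom)2033 heterozygotes and from -0.54 to 0.67 in roDom homozygotes. It lay between 0.06 and 0.83 in E(roDom)2033 homozygotes, 0.14 and 0.68 in roDom heterozygotes, 0.08 and 0.72 in Su(roDom)519, 0.17 and 0.48 in fragments and -0.21 and 0.43 in hh1. All 9 genes were detected on at least 17 arrays. Muscle and salivary gland lists followed Obp99b less closely, at r = 0.46 and 0.51 over 27 arrays. Within conditions these values were 0.56 and 0.65, within days 0.41 and 0.58, and without day 6 -0.01 and 0.40. The mean of 5 genes known for sex-biased expression or dosage compensation gave 0.00. The part of fat-body cells in the Obp99b values was not tested.

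**Figure D2:**
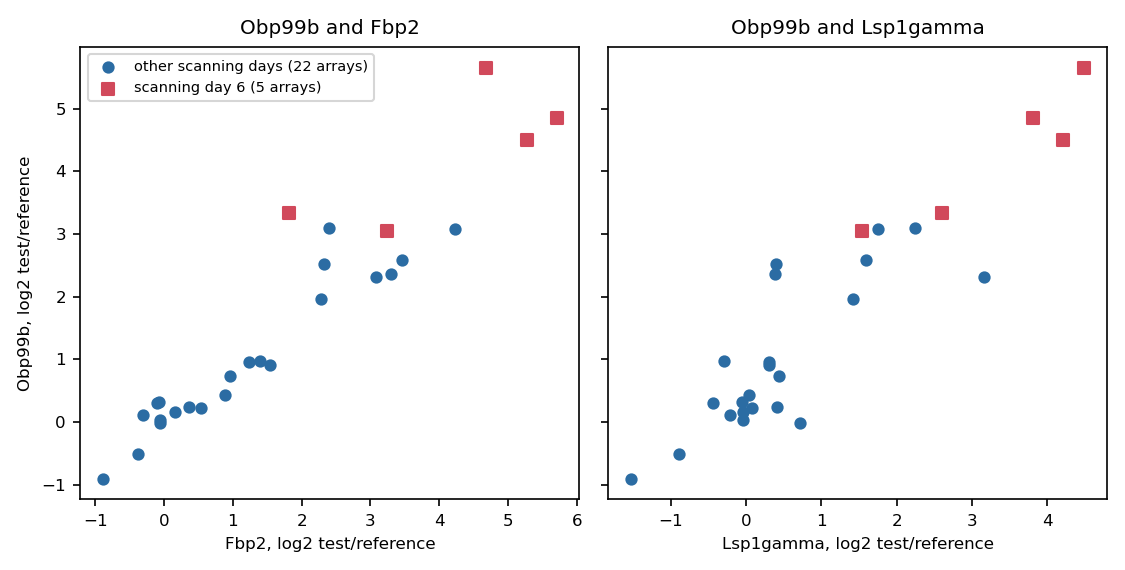
Log2 test over reference of Obp99b (probe c, y axis) against Fbp2 and Lsp1gamma (x axes), 1 point per array, with the 5 arrays of scanning day 6 as red squares and the other 22 as blue circles. Both relations run along the whole range, and all day 6 arrays lie at 3.05 or higher in Obp99b.

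Obp56d had condition means near 0 in posterior fragments and roDom homozygotes and above 0 in the other discs, with single arrays far above the rest. The fragments read -0.15, 0.62, -0.12 and -0.48, and the roDom homozygotes -0.21, -0.52 and 0.76. The -0.15 of fragment replicate 1 carries no information, since neither channel was above background there, and the -0.52 of roDom homozygote replicate 2 reads 0.52 when turned by its header. The roX63 discs read 2.0, 1.72 and 5.12 (mean 2.95 ± 1.89, n = 3). The reference channel was not above background on roX63 replicates 1 and 2, nor on E(roDom)2033 homozygote replicate 2 and roDom heterozygote replicate 2, so the size of those ratios is uncertain. Among the roX63 arrays the reference was measured above background for replicate 3 alone, at 5.12.

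The E(roDom)2033 homozygotes read 0.12, 2.28 and 4.30 for Obp56d, and the heterozygotes 1.96 and 0.50. The ato1 discs read 3.16, 0.29 and 2.55, and the hh1 discs 1.77, -0.01, 1.34 and 0.25. The ranges of these 4 conditions overlapped. Su(roDom)519 read 1.63, 1.36 and 0.10, and the roDom heterozygotes -0.02 and 0.97. The reference signal of Obp56d was the dimmest of the members, with a median of 63 units and detection on 22 of 27 arrays, against detection of the test channel on 25. With day of scanning as a block, Obp56d read -1.13 in fragments, -0.42 in roDom heterozygotes and 2.04 in hh1. These are levels at the average of the 9 days, so their sign does not compare with that of the plain means.

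The genes most like Obp56d were Nmdar2 (an NMDA-type glutamate receptor subunit, r = 0.78 over arrays and 0.82 over condition means), spir (the actin nucleator spire, 0.70 and 0.84), the family member Obp58c (0.69 and 0.76), the larval serum protein gene Lsp1beta (0.68 and 0.79) and the vitelline membrane gene Vm26Ac (0.67 and 0.68). Within conditions the 5 values ran from 0.55 to 0.79. Without the 2 arrays farthest in Obp56d they were 0.63 for Nmdar2, 0.41 for spir, 0.60 for Obp58c, 0.61 for Lsp1beta and 0.31 for Vm26Ac, so the likeness of spir and Vm26Ac rests largely on those arrays. Nmdar2 itself moved little, between -0.19 and 0.92. With the mean of the fat-body genes Obp56d correlated at r = 0.50 (0.41 within conditions). Of these 9 genes, with Lsp1beta among them, 2 had r above 0.5 with Obp56d, and the lowest was -0.25.

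The genes most like Obp44a were Ggamma30A (a G protein gamma subunit, r = 0.85 over arrays and 0.89 over condition means), santa-maria (needed for carotenoid uptake, 0.76 and 0.85), HisCl1 (a histamine-gated chloride channel, 0.74 and 0.78), Pof (a protein of the fourth chromosome, 0.74 and 0.88) and Cdk5alpha (the activator of the kinase Cdk5, 0.73 and 0.72). Ggamma30A averaged 1.19 ± 0.89 in fragments (n = 4) and -1.40 ± 0.15 in ato1 discs (n = 3). Within conditions it still gave r = 0.77, where santa-maria gave 0.33.

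Those most like Obp99a were Ance (an angiotensin-converting-enzyme-like peptidase, r = 0.83 and 0.85), Cda4 (a chitin deacetylase-like gene, 0.80 and 0.88), rept (the helicase reptin, 0.80 and 0.88), Ak3 (an adenylate kinase, 0.76 and 0.89) and Psf2 (a subunit of the GINS replication complex, 0.75 and 0.77). The fragments form a cluster apart in Obp99a, and without them r fell to 0.14 for Ance, 0.16 for Cda4 and 0.40 for Ak3, with 0.59 for rept and 0.56 for Psf2 (n = 23). The likeness of the first of these therefore rests on the 4 fragment arrays. Ance averaged -4.80 ± 0.16 there, and Psf2 -0.48.

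**Figure D3:**
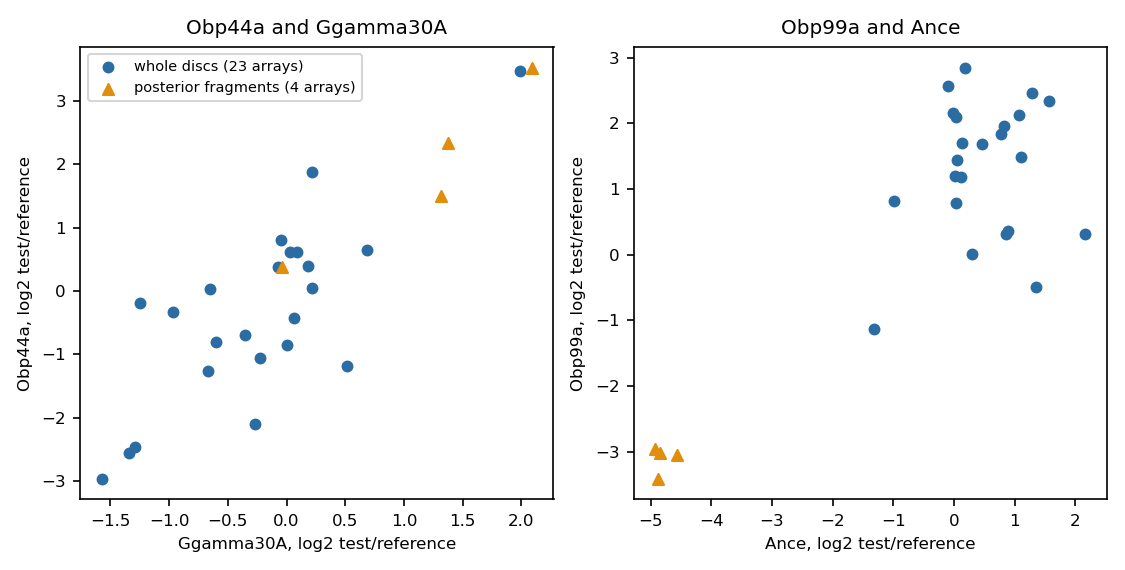
Log2 test over reference of Obp44a against Ggamma30A and of Obp99a against Ance, 1 point per array, with fragments as orange triangles. The points of Obp44a and Ggamma30A follow a line (r = 0.85), while Obp99a and Ance form a fragment cluster and a whole-disc cloud with r = 0.14.

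Correlations among the 4 genes were of both signs. Over 27 arrays the Pearson r of the 6 pairs ran from -0.35 to 0.47. The highest was Obp99b with Obp56d at 0.47 (rho 0.58), with 0.43 within conditions and 0.52 within days. Obp44a and Obp99a, which lay on opposite sides of the reference in fragments, gave -0.35 over all arrays, 0.21 over the 23 whole-disc arrays, 0.085 within conditions and -0.51 within days. Obp44a gave -0.33 with Obp99b and -0.20 with Obp56d, and Obp99a gave 0.12 and 0.19 with these.

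The arrays that carried the highest values were different for each gene. Obp44a peaked in fragment replicate 1 (3.53) and E(roDom)2033 homozygote replicate 2 (3.48), and Obp99a in hh1 replicate 3 (2.85). Obp99b peaked in ato1 replicate 3 (5.66), and Obp56d in roX63 replicate 3 (5.12), which was also the whole-disc array lowest in Obp99a.

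**Figure D4:**
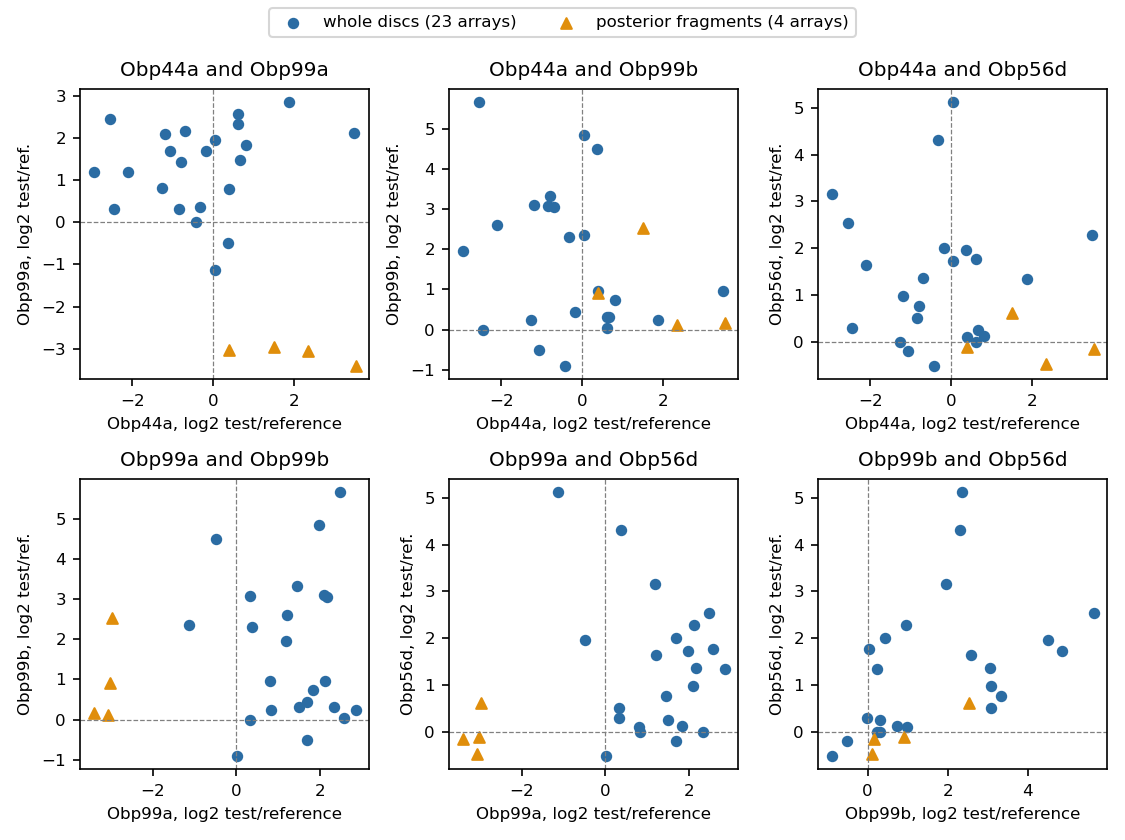
Log2 test over reference for the 6 pairs of the 4 genes (Obp99b by probe c), 1 point per array, with the 4 fragment arrays as orange triangles and 23 whole-disc arrays as blue circles. The highest r is that of Obp99b and Obp56d (0.47), and the fragments lie apart wherever Obp99a is plotted.

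Of the nearest neighbours on the chromosome, Obp56a was the one most like a member. Pabp2 and Lpin flank Obp44a among the genes with a probe and gave r = -0.25 and -0.08 with it, and ppk30 and ppk19 gave 0.05 and -0.13 with Obp99a. Beside Obp99b lie Obp99d (0.30) and CG15506 (-0.18). Obp56d has family members on both sides, Obp56a (0.61) and Obp56e (0.35), and Obp56a ranged from -0.23 to 2.39.

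The remaining Obp genes were flatter than the 4 members. The members had been picked for their changes in these data, so this contrast was set in advance and is a description. Among the 32 genes Obp19c, Obp19d, Obp83b and Obp69a were detected least, in at least 1 channel on 3, 4, 7 and 9 arrays. Medians of the 32 genes over the 27 arrays ran from -0.04 (Obp84a) to 0.46 (Obp56a). Obp28a, Obp58c, Obp99c and Obp47a had the largest SDs, 0.87, 0.77, 0.75 and 0.74, against 1.43 to 1.87 for the members (Obp99b by probe c). On roX63 replicate 3 alone, 11 of the 32 genes (34.4%) had their highest value, while 6.75% of all probes peaked on that array.

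In limma's fit over all probes with Benjamini-Hochberg adjustment, roX63 discs had the most calls among these genes. Higher were Obp56a (1.70 ± 0.25 SE, adjusted p = 0.000182), Obp58c (1.35 ± 0.40, adjusted p = 0.0273), Obp58d (1.15 ± 0.31, adjusted p = 0.016), Obp18a (0.82 ± 0.15, adjusted p = 0.00123), Obp46a (0.56 ± 0.15, adjusted p = 0.0168) and Obp93a (0.38 ± 0.12, adjusted p = 0.0426). That is 6 of 32 higher and 0 lower, where 13.5% of all probes passed. Obp58c read 0.11, -0.02 and 3.70 on the 3 arrays and Obp58d 0.46, 0.40 and 2.52, so replicate 3 stood alone. Obp56a read 1.03, 1.57 and 2.39. Without replicate 3 the count was 1, Obp56a, and without replicate 1 it was 10. With array series as a block, or in the authors' deposited table, it was 2 (Obp18a and Obp56a), and with scanning day as a fixed block 1 (Obp83cd). A fixed block sets a condition at the average of the series or days, so the blocked counts do not test its plain mean. The call of Obp93a was lost in 11 of 27 fits that each left out 1 array.

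In ato1 discs 2 of 32 passed in limma's fit, where 10.7% of all probes did. Obp83cd rose by 0.99 ± 0.28 (SE, adjusted p = 0.0246), from arrays at -0.10, 0.23 and 2.65, and Obp56a by 0.80 ± 0.25 (adjusted p = 0.0467), from 1.3, 0.11 and 1.11. Without ato1 replicate 3 the count was 0, without ato1 replicate 2 it was 5 and without roX63 replicate 3 it was 4. The call of Obp56a, close to the threshold, was lost in 16 of 27 such fits. With array series as a block the ato1 count was 0, and with scanning day as a fixed block it was 4, with Obp83cd among them and without Obp56a. Here too the blocked counts do not test the plain mean. Obp56a and Obp18a were also higher in extra-R8 than in stop-furrow discs (0.91 ± 0.22, adjusted p = 0.0134, and 0.50 ± 0.13, adjusted p = 0.0221), 2 of 32 where 8.09% of all probes passed. That count was 0 with scanning day as a random block or without Su(roDom)519 replicate 1. With day as a fixed block the count was 1, but that gene was Obp83cd. It was also 1 without Su(roDom)519 replicate 2 (Obp56a) or roX63 replicate 3 (Obp85a).

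In the other comparisons limma called 0 of the 32 genes. These were posterior fragments (2 at an unadjusted p under 0.05), roDom homozygotes (2, with 3.7% of all probes called), roDom heterozygotes (0, with 5.47%) and E(roDom)2033 homozygotes (0, with 13.7%). They also include E(roDom)2033 heterozygotes (4, with 5.2%), hh1 (0, with 5.94%), Su(roDom)519 (5, with 4.7%) and fragments minus stop-furrow discs (2 at an unadjusted p under 0.05). All bracketed counts are at limma's unadjusted p under 0.05, while the percentages are at the adjusted threshold, so the 2 do not compare. The share of all probes at the unadjusted threshold was not computed.

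**Figure D5:**
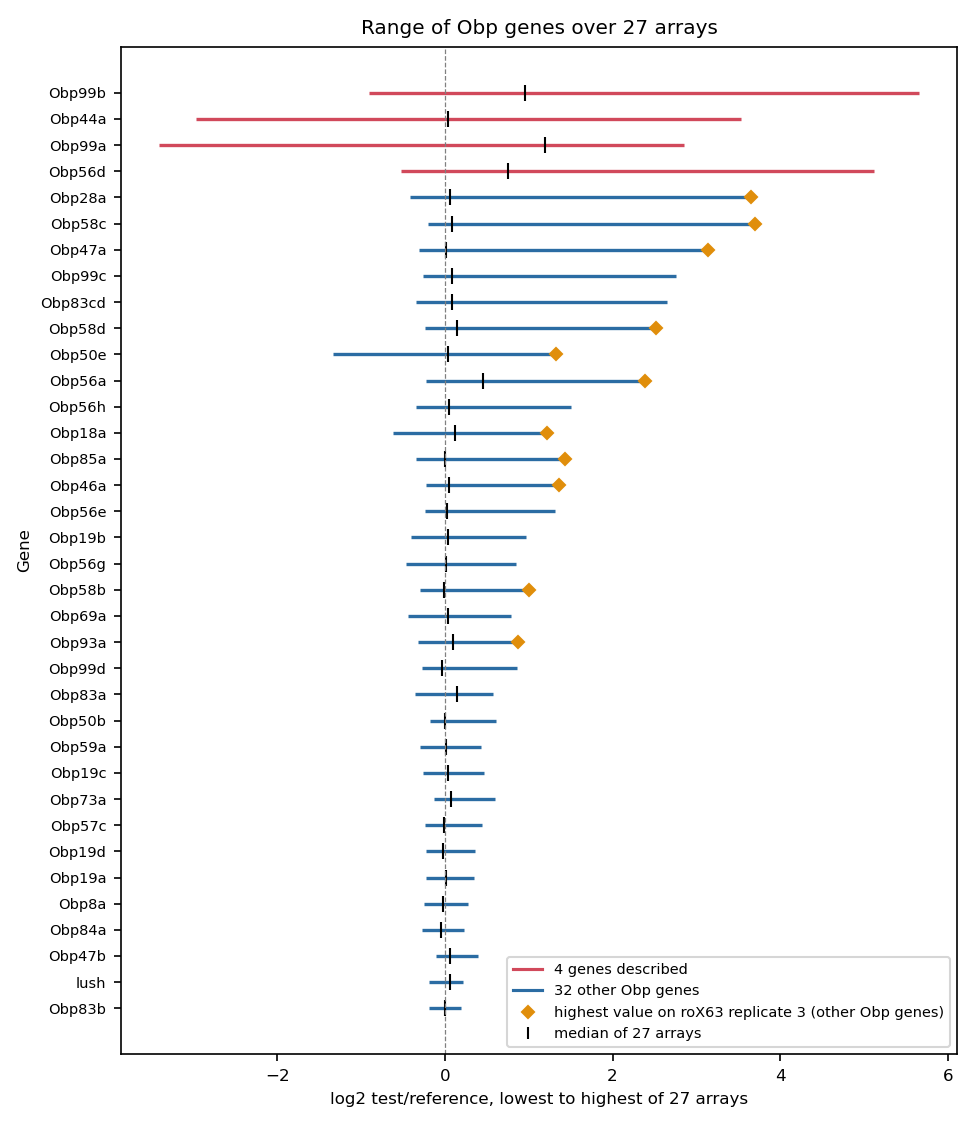
Lowest to highest log2 test over reference of each Obp gene over 27 arrays (x axis), sorted by width, with the median as a black tick, the 4 described genes in red and 32 others in blue. Orange diamonds mark the 11 other Obp genes whose highest value came from roX63 replicate 3.

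Few genes of a chemosensory list passed the test. Of 15 listed receptors, co-receptors and partners, with the odorant-binding gene lush among them, 1 passed in roDom heterozygotes, the co-receptor gene Ir8a (0.34 ± 0.10 SE, adjusted p = 0.0491 in limma's fit). In fragments minus stop-furrow discs 1 passed, the carbon dioxide receptor gene Gr21a (0.40 ± 0.10, adjusted p = 0.0117), detected on fewer than 14 arrays. In the other 9 comparisons 0 passed in limma's fit, with 0 to 3 genes at an unadjusted p under 0.05. A count of 1 of 15 is close to the shares of all probes called in these comparisons, 5.47% and 7.96%.

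Among other small lipid carriers, Npc2a passed the test in the most comparisons. Npc2a, which binds sterols in the lysosome, was higher in posterior fragments (1.62 ± 0.22 SE, adjusted p = 0.000122 in limma's fit) and roX63 discs (1.86 ± 0.26, adjusted p = 8.48e-05). It was lower in ato1 (-1.14 ± 0.26, adjusted p = 0.00543), hh1 (-0.99 ± 0.22, adjusted p = 0.00994) and E(roDom)2033 homozygotes (-0.96 ± 0.26, adjusted p = 0.0151). Its difference was 2.59 ± 0.25 between fragments and stop-furrow discs and 2.10 ± 0.22 between extra-R8 and stop-furrow discs. In limma's fit the adjusted p of these differences was 5.29e-07 and 7.73e-06.

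Of the 14 measured lipid carriers, 3 were higher and 2 lower in ato1 discs, where 4.31% of all probes were higher and 6.4% lower. The sterol carrier gene ScpX (0.65 ± 0.10 SE, limma adjusted p = 0.000143), Phk-3 (1.23 ± 0.34) and Npc2g (1.49 ± 0.45) rose, while Npc2a and the fatty-acid-binding gene fabp (-1.32 ± 0.28) fell. In E(roDom)2033 homozygotes 3 rose (the lipocalin gene GLaz, Npc2b and ScpX) and 2 fell (Npc2a and Npc2c), where 7.31% of all probes were higher and 6.44% lower. Fragments had 2 higher and 0 lower, hh1 1 and 1, roX63 1 and 1, E(roDom)2033 heterozygotes and Su(roDom)519 0 and 1 each, and both roDom genotypes 0. Counts of 0 or 1 of 14 are close to the shares of all probes, which lay between 1.3% and 7.41% per direction in these conditions. Npc2g followed Obp99b at r = 0.84 over 27 arrays, and its ato1 values ranged from 0.07 to 3.87.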

How the data were processed

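The deposited scanner files hold spot intensity and local background per channel, the percent of saturated pixels and a spot score, per the file headers (GenePix). The deposited value table holds log2 ratios, which the labels give as test over reference, while the array titles name the reference first. Set against the scanner values of the same arrays, these ratios run as reference over test, so their sign was turned. Their column medians lie between -0.16 and 0.15, and how the authors normalised and centred them is not given in the sources used here. It was an alternative only. Its column for hh1 replicate 2 is the exact mirror of that for Su(roDom)519 replicate 3 (r with its own scanner file 0.137) and was left out.

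The spots scored -75 or below were left out. Background was corrected by normexp (offset 50) and ratios by global loess per array, with control spots at weight 0, in limma 3.58.1 (R 4.3.3). Each array was turned by the dye in its labels. Spots of a probe were averaged. A spot counted as detected when its net signal passed 2 SD of the local background. Probes were named through a RefSeq gene table: 12714 by locus tag, 34 by symbol, 2753 by synonym, and 997 stayed unnamed. Where a gene had more than 1 probe, the brightest stood for it, except where all 3 Obp99b probes are given.

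Member values are means ± SD of arrays. Other genes were tested in 1 limma fit with 9 condition means and a dye term, Benjamini-Hochberg over probes with at least 2 arrays per condition, at adjusted p under 0.05; the fit was tested on simulated data. The p-values measure the spread between these arrays. Other Obp genes and list genes past the threshold were named, and for each member its nearest neighbours on both sides and the 5 genes of highest r. The members and lists were chosen with earlier results of these data known. Alternatives were background, normalization, score limit, dye term, array series, scanning day, relabelled arrays and arrays left out; those on day 6, on deviations from day means and on the header's dye order were added after seeing the data. Sequences were not used here.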

Additional observations from a re-analysis of the deposited data

Results flagged for a closer look

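Among the 4 arrays of hh1 discs, replicate 3 stood apart from the others in Obp44a. It read 1.87 where the other 3 read 0.61 to 0.66, a gap of 0.967 of the whole range. Of 12 groups of 4 arrays this was the only one with a gap large enough to be marked, and chance marks about 1 in 20. The mark is a description of these arrays and not a test of the gene.

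In several pairs of conditions every array of one lay above the reference and every array of the other below it. The differences between the condition means were not tested. The pairs with roDom homozygotes rest on replicate 2, at -0.42 for Obp44a and 0.02 for Obp99a. Turned by its header that array reads 0.42 and -0.02, and these 3 pairs are then not of this kind. For Obp44a, posterior fragments exceeded roDom homozygotes by 2.70, roDom heterozygotes by 3.16 and ato1 by 4.60. The hh1 discs exceeded the same conditions by 1.70, 2.17 and 3.60. Obp99a exceeded the fragments by 4.16 in roDom homozygotes, 4.57 in roDom heterozygotes, 4.56 in E(roDom)2033 homozygotes, 4.44 in ato1, 5.43 in hh1 and 4.50 in Su(roDom)519. The test channel of Obp99a was dim in the fragments, so the size of these Obp99a differences is uncertain.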

How the results depend on the processing

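Of the 36 condition means, none moved by an SD or more without background subtraction, with print-tip loess, with the dye term or with the stricter score limit. Leaving out 1 array cannot move a mean of 2 to 4 arrays by an SD, so it says nothing about stability here; Obp44a in E(roDom)2033 homozygotes, for example, ranged from 0.24 to 2.14. A fixed block of scanning day or array series sets each condition at the average of the days or series. Blocked levels, and blocked calls of a condition against 0, are therefore not those of plain means, while differences between conditions can be compared. For conditions that share no day or series, such differences rest on arrays of other conditions. With scanning day as a fixed block Obp44a read 0.0064 in roDom homozygotes, -0.20 in roDom heterozygotes, -2.12 in ato1 and 0.80 in roX63. Obp99b (probe c) then read 3.12 and 0.78 in E(roDom)2033 homozygotes and heterozygotes, 2.05 in hh1, -0.10 in roX63 and -0.44 in Su(roDom)519 (probe a -0.42 and -0.91, probe b -0.33 and -0.77), and Obp56d -1.13 in fragments, -0.42 in roDom heterozygotes and 2.04 in hh1; the cause was not tested. As a random block it gave -1.09 for Obp44a in roDom heterozygotes and 0.50 for Obp99b in hh1. Scale normalization gave -1.31 for Obp44a in roDom heterozygotes and -3.79 for Obp99a in fragments. The authors' table gave -1.39 and -4.12 for these, 3.88 for Obp99b and 1.64 for Obp56d in roDom heterozygotes, and 2.35 and 2.24 for Obp56d in hh1 and Su(roDom)519. The 7th series alone, which has 1 roDom homozygote array, gave 3.33 for Obp99b and 0.76 for Obp56d. With the 2 conflicting arrays as heterozygotes, that condition read 0.66 for Obp44a, 0.58 for Obp99a and 2.71 for Obp99b, and the remaining homozygote 0.12 for Obp56d.

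Calls among the other Obp genes, 8 over 9 conditions, were 4 with the authors' table, 2 with array series as a block, 13 with day as a fixed block (Obp83cd in all 9 conditions) and 4 with it as a random block, and 6 to 12 with 1 array left out. Extra-R8 minus stop-furrow discs, with 2, gave 1 with the authors' table (Obp18a), 1 with day fixed (Obp83cd, so both calls were lost), 0 with day random, and 0 to 3 with 1 array left out (0 without Su(roDom)519 replicate 1). Fragments minus stop-furrow discs, with 0, gave 1 with scale normalization, 1 with day fixed, and 0 to 1 with 1 array left out (1 without roDom homozygote replicate 1). As deviations from condition means, r was 0.085 for Obp44a with Obp99a and -0.24 for Obp99a with Obp56d. No paired analysis was possible because the labels give the conditions no shared replicate numbers. Dim channels limit Obp99b and Obp56d, and a dim test channel limits Obp99a in fragments. The 2 to 4 arrays per condition limit every mean.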
